A study of Mus musculus with 6 samples.

Results

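The 9 genes described here, Sult1a1, Sult1b1, Sult1c2, Sult1d1, Sult1e1, Sult2a1, Sult2a8, Sult3a1 and Sult5a1, are cytosolic sulfotransferase genes of mouse liver, given as a list of symbols and matched to the gene symbols of the deposited tables of 55487 genes. All libraries came from livers of males fed a high-fat diet (HFD). The 3 mutant livers carried the genotype RXRa f/f with Alb cre+/-, and the design text calls the mutation Rxra S65A. The 3 control livers carried Alb cre +/- alone, and their titles call them WT. All 6 were of the strain C57/Bl6J and all carried the Alb cre transgene, whose albumin promoter is active in hepatocytes. Poly(A)-enriched RNA was sequenced as read pairs of 150 bases, with 35847386 to 43162557 estimated counts per library in the mutants and 38766643 to 40155170 in the controls. Age and time on the diet are not given in the labels.

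Cytosolic sulfotransferases move a sulfate group from the donor 3′-phosphoadenosine-5′-phosphosulfate (PAPS) onto hydroxyl or amino groups of small molecules. In the liver the products, sulfated phenols, steroids, thyroid hormones, catecholamines and bile acids, are more soluble in water and are carried into bile or blood. Several of these genes differ between male and female mouse liver, and several are known targets of nuclear receptors that pair with RXRα, the product of Rxra.

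Relative to the typical gene, Sult2a8 and Sult5a1 were higher and Sult1c2 was lower in mutant livers. Sult2a8 was 2.17-fold higher and Sult5a1 was 4.69-fold higher in the mutants, and Sult1c2 was 4.10-fold lower. Sult3a1 had no counts in any mutant library and a low level in every control. Sult1a1, Sult1d1, Sult1b1 and Sult1e1 did not pass the test, and Sult2a1 was at the limit of detection in both groups. These folds come from edgeR's quasi-likelihood test on rounded estimated counts with TMM scaling, which sets the typical gene equal between groups. A gene was called at a Benjamini-Hochberg adjusted p under 0.05 over 14286 tested genes.

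Of the 9 genes, 7 had enough counts to be tested, and 2 of these were called higher, 1 lower and 4 in neither direction. Over all tested genes 6.64% were called higher and 6.82% lower, together 13.5%. The members were chosen with earlier results of these data known, so these shares are a description and not a test of the list. The median log2 fold change of the 7 was 0.25, and that of all tested genes was 0.00. The mutant libraries lay outside the control range in CPM, counts scaled to library size after TMM, for 34.9% of all tested genes. They lay above it for 17.4% and below it for 17.5%. Of the 7 tested members, Sult1a1, Sult1d1, Sult2a8 and Sult5a1 lay above the control range and Sult1c2 below it.

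**Figure D1:**
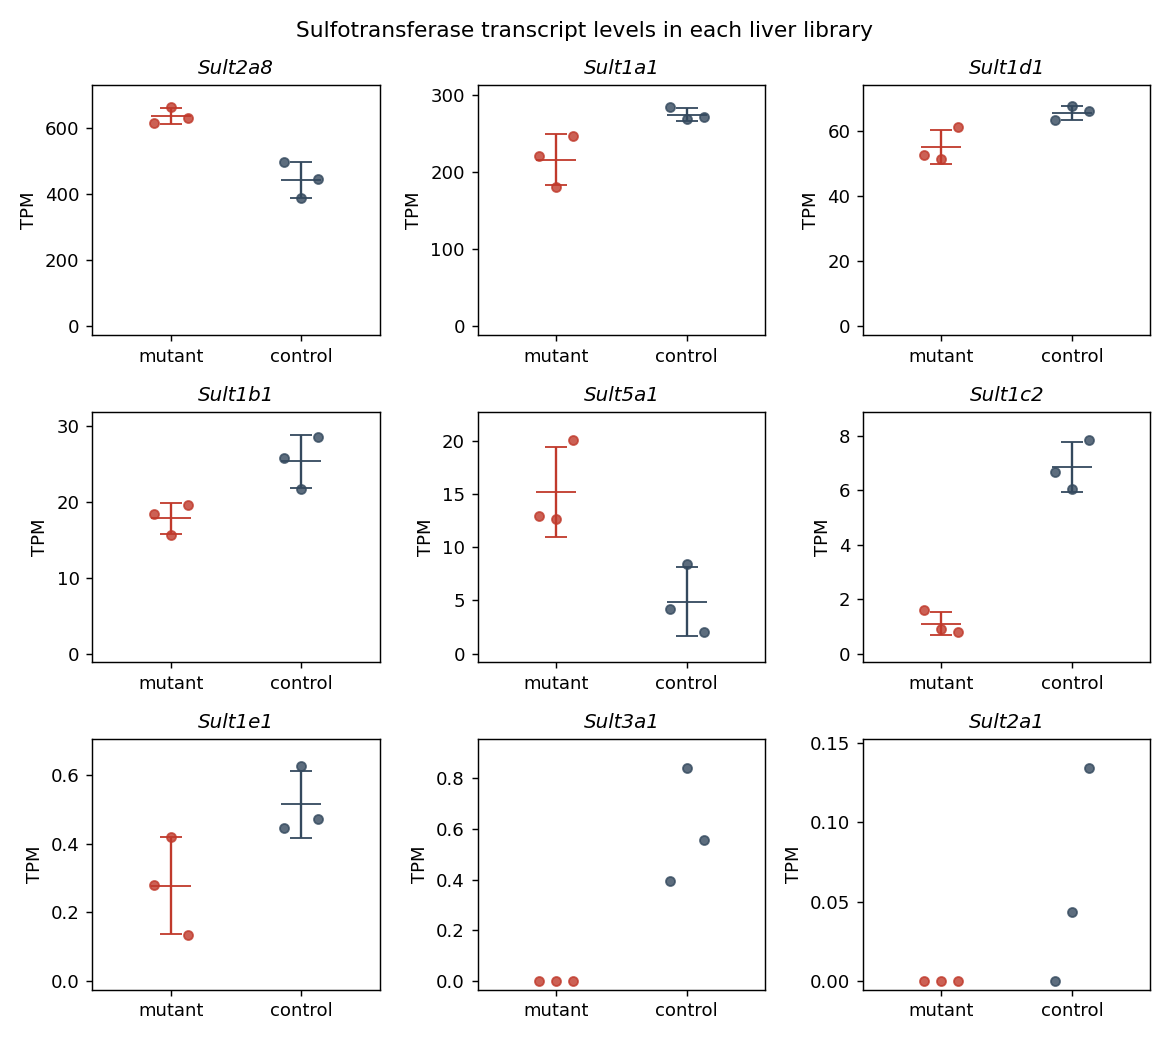
Transcript levels of the 9 sulfotransferase genes in TPM, a length-scaled abundance, on linear axes that start at 0. Each point is 1 library, and bars are the mean ± SD of 3 libraries, drawn where no library is at 0. The mutant points lie above the control points for Sult2a8 and Sult5a1. They lie below them for Sult1c2 and Sult3a1, and also for Sult1a1, Sult1d1, Sult1b1 and Sult1e1 on this scale. Lower values were common in TPM, where 7322 of 11567 tested genes were called lower by limma on log2(TPM + 1).

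Rxra itself was still counted in the mutants, at 174, 119 and 148 TPM in mutant libraries 1 to 3, against 181, 170 and 152 TPM in control libraries 1 to 3. The groups overlapped in TPM. After TMM scaling the mutants lay above the controls, at 700, 522 and 609 CPM in mutant libraries 1 to 3, against 501, 471 and 414 CPM in control libraries 1 to 3. The log2 fold change was 0.40 ± 0.13 (SE) and was not called (edgeR adjusted p = 0.0724). Gene-level values cannot show which form of the protein the transcripts encode.

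Sult2a8, which in the mouse liver sulfates bile acids, was the most abundant of the 9 in every library. Its levels were 617, 664 and 631 TPM in mutant libraries 1 to 3, against 499, 390 and 445 TPM in control libraries 1 to 3. All mutant libraries lay above all controls, and the spread within each group was smaller than the gap between the group means. After TMM scaling the level was 936 ± 78.6 CPM in the mutants and 431 ± 53.3 CPM in the controls (SD, n = 3 each), a log2 fold change of 1.12 ± 0.12 (SE, edgeR adjusted p = 0.00105). The increase kept its direction and its call in every alternative run. Its size depended on the scaling, with a log2 fold change of 0.72 at library totals and of 0.52 on log2(TPM + 1).

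Sult2a8 lies on the minus strand of chromosome 7 (chr7:14410686-14446769, mm10), beside Sult2a7 (chr7:14465051-14494230). The other Sult2a genes, Sult2a1 to Sult2a6, lie in the same stretch of the chromosome, from base 13623967 to base 14254870. Among alignments of at least 700 coding bases its closest relative in the family was Sult2a4, with 71.8% identical bases, and Sult2a1 shared 70.4%. Over a shorter alignment of 578 bases Sult2a2 shared 75.1%. Of its neighbours only Sult2a7 had enough counts to be tested. Sult2a7 had 3.86, 4.72 and 3.12 TPM in mutant libraries 1 to 3, against 5.79, 5.52 and 2.24 TPM in control libraries 1 to 3. Those groups overlapped, and edgeR made no call (log2 fold change 0.39 ± 0.43, adjusted p = 0.603).

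Sequence upstream of Sult2a8, Sult5a1 and Sult3a1 is shown because partner receptors of RXRα recognise variants of the half-site AGGTCA. The bases come from the RefSeq promoter table of build GRCm38.p6, which holds 8 of the 9 genes in 10 windows. Only the 250 bases before each start were searched, and bases inside GENCODE exons of the gene are left out of what is printed, which leaves nothing of the Sult1c2 window. Capitals mark matches on either strand to AGGTCA, to the STAT core TTCNNNGAA or to the HNF1 half-site GTTAAT. All sequences read 5′ to 3′ on the strand of the gene.
Sult2a8, inner start, chr7:14438562-14438801, minus strand: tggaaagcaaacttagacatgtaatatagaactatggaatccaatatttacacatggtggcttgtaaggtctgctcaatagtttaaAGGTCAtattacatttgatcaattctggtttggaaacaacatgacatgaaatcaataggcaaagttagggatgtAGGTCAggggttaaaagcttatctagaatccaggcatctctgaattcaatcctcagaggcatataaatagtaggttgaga
Sult5a1, chr8:123158316-123158530, minus strand: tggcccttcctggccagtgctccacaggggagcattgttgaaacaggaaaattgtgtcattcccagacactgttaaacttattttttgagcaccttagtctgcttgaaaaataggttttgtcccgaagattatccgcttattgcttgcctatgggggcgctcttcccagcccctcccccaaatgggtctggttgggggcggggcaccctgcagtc
Sult3a1, chr10:33857472-33857720, plus strand: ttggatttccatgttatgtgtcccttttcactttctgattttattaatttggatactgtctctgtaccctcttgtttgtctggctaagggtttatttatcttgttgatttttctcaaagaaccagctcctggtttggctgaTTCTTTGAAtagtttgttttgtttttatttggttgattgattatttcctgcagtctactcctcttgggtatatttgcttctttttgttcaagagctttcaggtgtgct

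RefSeq gives Sult2a8 a pair of starts. The window before the inner start, which lies inside the gene, held AGGTCA at 2 places, beginning 164 and 90 bases before the start. The window before the outer start held none and is not printed. Of its 250 bases, all searched, 174 lay in GENCODE exons of the gene. At least 2 such matches occurred in 1.36% of 32851 promoter windows of the same length, and at least 1 in 14.0%. These are rates for a single window, whereas 10 member windows were searched, of which 3 held at least 1 match. Binding at these places was not tested. Sult1b1 and Sult1e1 had 1 match each, on the opposite strand, 123 and 113 bases before a start, and no member window held a direct repeat of AGGTCA spaced by 1 or 4 bases (0.0335% and 0.0152% of all windows). The STAT core stood 109 bases before the start of Sult3a1 (7.02% of all windows). GTTAAT stood before Sult1a1 and Sult1d1 (6.43% of all windows). No searched motif stood in the windows of Sult5a1 and Sult1c2. The counts are gene totals and do not show which start was used.

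Sult5a1, whose substrates are little known, was 12.9, 12.6 and 20.1 TPM in mutant libraries 1 to 3, against 4.16, 8.41 and 2.06 TPM in control libraries 1 to 3. All mutant libraries lay above all controls, although the controls differed widely among themselves. After TMM scaling it had 12.5 ± 3.30 CPM in the mutants and 2.66 ± 1.78 CPM in the controls (SD, n = 3 each), a log2 fold change of 2.23 ± 0.45 (SE, edgeR adjusted p = 0.0170). Without control library 1 the call was lost, with a log2 fold change of 2.13 and an adjusted p of 0.0608. Without control library 2, the highest control, the log2 fold change was 2.88 (edgeR adjusted p = 0.0087), and on log2(TPM + 1) it was 1.58 (limma adjusted p = 0.0129). The gene lies on the minus strand of chromosome 8 (chr8:123140192-123158315), wholly inside the annotated span of Gm20388 on the other strand. Gm20388 was listed at 5.00 TPM in control library 1 and at 0 in the other 5 libraries. The strandedness of the counting is not given in the sources used here, and only the overlap of the gene spans was examined. Whether reads of Gm20388 were counted for Sult5a1, or the reverse, was not tested.

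Sult1c2, a member of the 1C subfamily of phenol sulfotransferases, was 1.5997, 0.910 and 0.804 TPM in mutant libraries 1 to 3, against 6.66, 6.05 and 7.86 TPM in control libraries 1 to 3. The highest mutant library stood far below the lowest control. After TMM scaling it fell to 1.78 ± 0.644 CPM in the mutants, against 7.36 ± 0.920 CPM in the controls (SD, n = 3 each), with a log2 fold change of -2.04 ± 0.29 (SE, edgeR adjusted p = 0.00395). The decrease kept its direction and its call in every alternative run. Sult1c2 lies on chromosome 17 (chr17:53829637-53846339, minus strand) and shared 67.8% of aligned coding bases with Sult1c1 on the same chromosome, which was listed at 0 in all 6 libraries.

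Sult3a1, known in the mouse for sulfating amines and for higher expression in females, had 0 TPM in each of the 3 mutant libraries, against 0.395, 0.842 and 0.557 TPM in control libraries 1 to 3. Summed by group this was 0 counts in the mutants and 40 in the controls, which makes it at least 10.0-fold lower in the mutants by a floor of 3 counts over the group. This bound covers counting error in the mutants only, and takes the 40 control counts as exact. The gene had too few counts to be tested after filtering. It was called lower with no filter (edgeR adjusted p = 0.0237) and with DESeq2 (adjusted p = 0.0112), and not called in the leave-one-out fits that kept it (edgeR adjusted p = 0.0513 to 0.0759). Sult3a1 (chr10:33857721-33879532, plus strand) shared 90.9% of coding bases with Sult3a2, so reads could be split between them, and Sult3a2 was listed at 0 in all libraries.

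Sult2a1, a hydroxysteroid and bile acid sulfotransferase known for much higher expression in female than in male mice, was almost absent. Summed by group it had 0 counts in the mutants and 4 in the controls, so no difference was detectable at this depth. Its coding sequence was 94.9% identical to that of Sult2a5 and, over a shorter alignment, 97.9% identical to that of Sult2a2, and its reads may be shared among the Sult2a genes. Sult2a1 to Sult2a7 summed, a total made almost wholly of Sult2a7, were not called either (log2 fold change 0.37, edgeR adjusted p = 0.604).

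Sult1e1, which inactivates oestrogens by sulfation, was low, at 0.279, 0.419 and 0.134 TPM in mutant libraries 1 to 3, against 0.445, 0.628 and 0.471 TPM in control libraries 1 to 3. These TPM values did not overlap, but in CPM after TMM scaling the groups did. It was not called (log2 fold change -0.24 ± 0.63, SE, edgeR adjusted p = 0.842), and sums of 28 counts in the mutants and 44 in the controls leave a wide error.

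The 3 other abundant members were not called, and their direction depended on the scaling. Sult1a1, the main phenol sulfotransferase of the liver, had 221, 181 and 247 TPM in mutant libraries 1 to 3, against 285, 269 and 271 TPM in control libraries 1 to 3. The mutants lay below the controls in TPM, but after TMM scaling they lay above them, with 227 ± 27.9 CPM in the mutants and 191 ± 7.13 CPM in the controls (SD, n = 3 each). Its log2 fold change was 0.25 ± 0.11 (SE), not called by edgeR (adjusted p = 0.169), and was -0.15 at library totals and -0.36 on log2(TPM + 1). Sult1a1 (chr7:126672865-126676432, minus strand) overlaps the end of Sgf29 on the other strand by 61 bases. Sgf29 had 10.5 to 13.5 TPM in the mutants and 16.8 to 22.3 TPM in the controls.

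Sult1d1, a catecholamine sulfotransferase of the mouse, had 52.9, 51.5 and 61.4 TPM in mutant libraries 1 to 3, against 63.4, 67.7 and 66.1 TPM in control libraries 1 to 3. As with Sult1a1, the mutants were below the controls in TPM and above them after TMM scaling, at 105 ± 9.22 CPM in the mutants and 83.0 ± 2.71 CPM in the controls (SD, n = 3 each). Its log2 fold change of 0.34 ± 0.10 (SE) lay just short of a call (edgeR adjusted p = 0.0509). It was called higher with DESeq2 (adjusted p = 0.0395), with robust quasi-likelihood (0.0439) and with TMM computed without the major urinary protein genes (0.0486), whereas the value was -0.054 at library totals and -0.25 on log2(TPM + 1). Sult1b1, which sulfates thyroid hormones, had 18.4, 15.6 and 19.5 TPM in mutant libraries 1 to 3, against 25.7, 21.7 and 28.6 TPM in control libraries 1 to 3. It was not called by edgeR (log2 fold change 0.09 ± 0.13, SE, adjusted p = 0.716), but it was called lower on log2(TPM + 1) with a log2 fold change of -0.48 (limma adjusted p = 0.0219).

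Sult1b1 (chr5:87513339-87538195), Sult1d1 (chr5:87554645-87569027) and Sult1e1 (chr5:87575969-87591594) form a run on the minus strand of chromosome 5. Sult1b1 and Sult1d1 shared 65.9% of aligned coding bases. None of these 3 neighbours was called by edgeR with TMM over all genes. All 9 members had coding sequences of 282 to 299 codons in 6 to 8 exons.

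**Figure D2:**
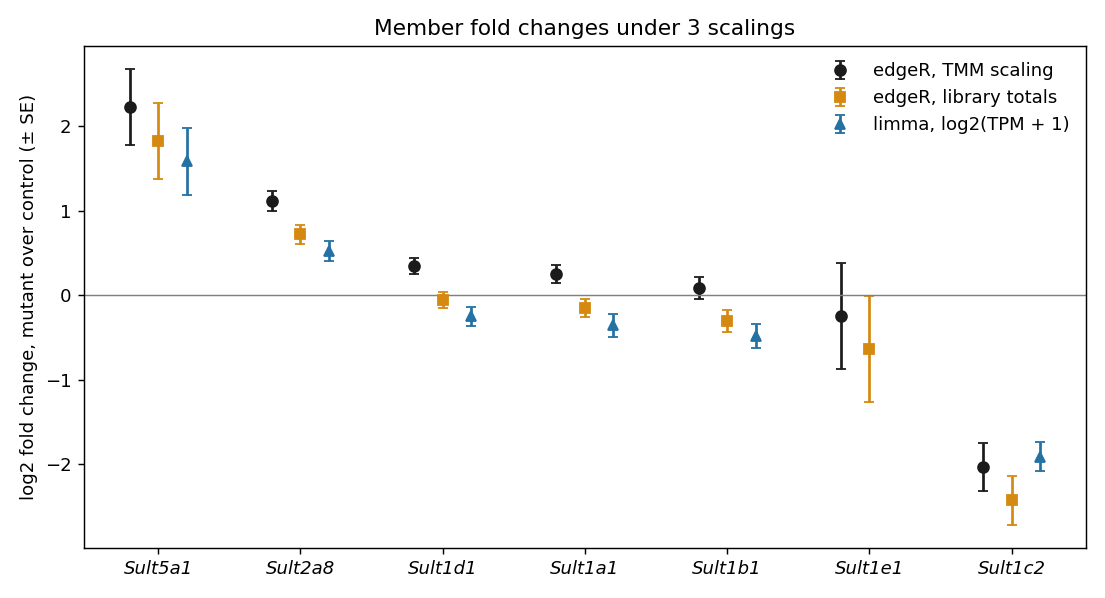
Log2 fold changes, mutant over control, of the 7 tested members, with SE, under edgeR with TMM scaling, edgeR with library totals and limma on log2(TPM + 1). Sult5a1 and Sult2a8 are above 0 and Sult1c2 is below 0 under each, while Sult1d1, Sult1a1 and Sult1b1 change sign. Sult1e1 was below the TPM filter.

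The composition of the libraries differed along with the scaling, and its part in the results was not tested. The major urinary protein genes took 12.8%, 16.9% and 12.8% of estimated counts in mutant libraries 1 to 3, against 3.09%, 2.05% and 1.85% in control libraries 1 to 3. Over the genes tested with TMM scaling, the median log2 fold change was -0.40 at library totals. It was -0.49 on log2(TPM + 1), over those of them that passed the TPM filter. Set against these medians, the values of Sult1a1 and Sult1d1 were higher than that of the typical gene under all 3 scalings, which was not tested. On log2(TPM + 1) Sult1a1, at -0.36 ± 0.13, lay within its SE of the median. Sult1b1 lay within its SE of the median under each scaling, at 0.09 ± 0.13 with TMM, -0.31 ± 0.13 at library totals and -0.48 ± 0.14 on log2(TPM + 1).

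Shares within a library do not depend on the scaling between libraries. They add up to a fixed total, so a larger share of Sult2a8 goes with smaller shares elsewhere, and the differences below are not separate results. Sult2a8 made up 66.8%, 71.7% and 64.4% of the summed TPM of the 9 members in mutant libraries 1 to 3, against 56.4%, 51.1% and 54.2% in control libraries 1 to 3. The mean share was 67.6 ± 3.73% in the mutants and 53.9 ± 2.68% in the controls (SD, n = 3 each). All mutant shares lay above all control shares, and the two-sided exact permutation p was 0.1, the smallest that 3 against 3 libraries allow (0.113 after Benjamini-Hochberg adjustment over the 9 members). The Sult1a1 share was 22.9 ± 2.97% in the mutants and 33.4 ± 1.53% in the controls (SD, n = 3 each, exact permutation p = 0.1). Sult1d1 made up 5.85 ± 0.369% in the mutants and 8.03 ± 0.846% in the controls (SD, n = 3 each, exact permutation p = 0.1).

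The shares of Sult5a1 were 1.604 ± 0.386% in the mutants and 0.607 ± 0.441% in the controls, and those of Sult1b1 were 1.89 ± 0.176% and 3.08 ± 0.350% in mutants and controls (SD, n = 3 each, exact permutation p = 0.1 for each). The ratio of Sult2a8 to Sult1a1, a pair chosen after the values were seen and therefore not tested, was 2.79, 3.67 and 2.56 in mutant libraries 1 to 3, against 1.75, 1.45 and 1.64 in control libraries 1 to 3. The summed TPM of the 9 was 924 to 980 in the mutants and 764 to 885 in the controls. The sums did not overlap and were not tested, and on this scale the means of Sult1a1, Sult1d1 and Sult1b1 were lower in the mutants while that of Sult2a8 was higher.

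**Figure D3:**
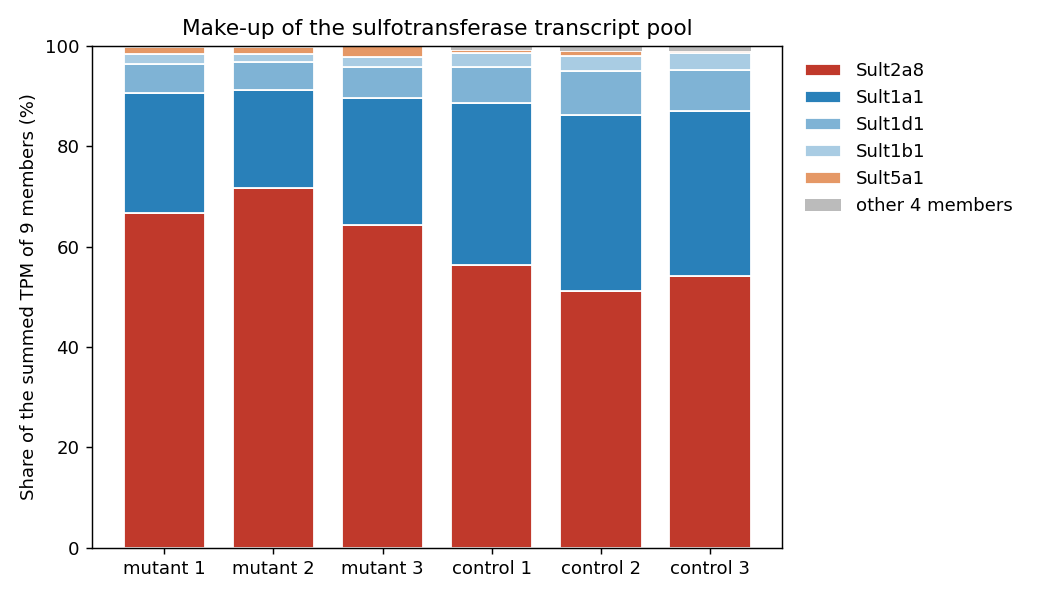
Share of each member in the summed TPM of the 9 genes, in percent, for each library, with the mutants on the left. Sult2a8 takes 64.4 to 71.7% in the mutants and 51.1 to 56.4% in the controls, and Sult1a1 takes 19.5 to 25.2% and 32.2 to 35.2% in mutants and controls.

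In TPM the order of levels in mutant livers was Sult2a8, Sult1a1, Sult1d1, then Sult1b1 and Sult5a1, whose ranges overlapped (15.6 to 19.5 and 12.6 to 20.1 TPM), then Sult1c2 and Sult1e1. In control livers the first 4 stood in the same order without overlap, and Sult1c2 (6.05 to 7.86 TPM) and Sult5a1 (2.06 to 8.41 TPM) overlapped below them. Sult3a1 and Sult1e1 followed with overlapping ranges in the controls.

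The genes with the most similar profile were found by the root-mean-square difference between log2 CPM profiles over the 6 libraries, each centred on its own mean. For Sult2a8 they were Cpsf4l (difference 0.10) and Ahcy, the S-adenosylhomocysteine hydrolase (0.11), which had 2952 CPM in the mutants and 1314 CPM in the controls. For Sult1c2 they were Gal3st1 (0.23) and the chemokine gene Ccl3 (0.23). Ccl3 was near the floor, at 0.045 CPM in the mutants and 0.340 CPM in the controls, and was not called (edgeR adjusted p = 0.0799). For Sult5a1 they were Ighg1 (0.28) and the protease inhibitor gene Serpine2 (0.38). A profile over 6 libraries in 2 groups is largely the difference between the groups, and nothing about shared control follows from it.

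Of 6 tested genes that make, carry or clear the sulfate donor, 1 was higher, 0 lower and 5 not called with TMM scaling. At library totals 1 was higher and 2 lower, and on log2(TPM + 1) 0 were higher and 4 lower. With TMM scaling 6.64% of all tested genes were higher and 6.82% lower. At library totals 293 of all 14286 tested genes were higher and 4508 lower. On log2(TPM + 1) 199 of 11567 were higher and 7322 lower, so most calls were lower there whatever the list. The called gene was Papss2, one of the enzymes that make PAPS. Papss2 had 49.8, 42.99 and 52.4 TPM in mutant libraries 1 to 3, against 43.5, 38.9 and 34.4 TPM in control libraries 1 to 3, so the groups overlapped in TPM by a small margin. After TMM scaling it had 155 CPM in the mutants and 82.9 CPM in the controls, without overlap (log2 fold change 0.91 ± 0.12, edgeR adjusted p = 0.0025). It was 0.51 and still called at library totals, and 0.31 and not called on log2(TPM + 1). Papss1, the other such enzyme, was 3.15 TPM in the mutants and 7.64 TPM in the controls without a call (log2 fold change -0.68 ± 0.25, adjusted p = 0.108 by edgeR).

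Among 8 tested genes of inorganic sulfate supply 2 were higher, 1 lower and 5 not called with TMM scaling, against 6.64% of all tested genes higher and 6.82% lower. At library totals 0 were higher and 4 lower, and on log2(TPM + 1) 0 were higher and 3 lower. In these settings 4508 of 14286 and 7322 of 11567 genes in all were lower. Slc13a4 was not among the genes tested on log2(TPM + 1), which needed at least 1 TPM in 3 libraries. Suox, the sulfite oxidase that yields sulfate in mitochondria, and Tst, a thiosulfate sulfurtransferase, rose by log2 fold changes of 0.58 ± 0.11 and 0.57 ± 0.10 (edgeR adjusted p = 0.0147 and 0.0114). On log2(TPM + 1) these were -0.03 and -0.02, and neither was called at library totals. Suox was also not called without control library 1 (adjusted p = 0.0569). The sodium and sulfate cotransporter gene Slc13a4 fell by 1.93 ± 0.54 on the log2 scale (0.0889 TPM in the mutants and 0.549 TPM in the controls, edgeR adjusted p = 0.0489), and without any single library it was no longer called (adjusted p 0.0673 to 0.160).

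Of 12 tested sulfatases, which remove sulfate groups, and their activating factors, 4 were lower, 0 higher and 8 not called with TMM scaling. Their median log2 fold change was -0.33. With this scaling 6.64% of all tested genes were higher and 6.82% lower. At library totals 9 were lower and 0 higher, and on log2(TPM + 1) 10 were lower and 0 higher. Of all tested genes 4508 of 14286 were lower at library totals and 7322 of 11567 on log2(TPM + 1). Sulf1 was below the TPM filter and was not tested on log2(TPM + 1). Arsb, the lysosomal N-acetylgalactosamine 4-sulfatase, fell by 0.60 ± 0.10 (edgeR adjusted p = 0.0071), and Sulf2, which trims heparan sulfate outside the cell, fell by 0.88 ± 0.19 (adjusted p = 0.0199). Arsa, the sulfatide sulfatase, and Arsg, a lysosomal arylsulfatase, fell by 0.46 and 0.42. Arsb was called without any 1 library. The calls of the other 3 were lost in some cases, for Arsg on leaving out any 1 library, for Arsa except without control library 3, and for Sulf2 without control library 2 or 3 or mutant library 1.

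Of 19 tested Golgi sulfotransferases, which act on proteins, glycans and glycolipids, 1 was lower, 0 higher and 18 not called with TMM scaling. Their median was -0.20. With this scaling 6.64% of all tested genes were higher and 6.82% lower. At library totals 7 were lower and 0 higher, and on log2(TPM + 1) 6 were lower and 0 higher. These counts stand beside 4508 of 14286 and 7322 of 11567 genes lower in all, so they do not set this list apart. Several of the 19, such as Chst2 and Ust, were below the TPM filter, so the 6 is not a count out of 19. The called gene was Gal3st1, the sulfotransferase of sulfatide synthesis, with 2.09, 1.07 and 1.06 TPM in mutant libraries 1 to 3, against 6.64, 6.40 and 6.58 TPM in control libraries 1 to 3. All mutants were below all controls, with a log2 fold change of -1.62 ± 0.29 (edgeR adjusted p = 0.0103).

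Among 17 tested regulators, transcription factors known to bear on sulfotransferase genes, 4 were higher, 1 lower and 12 not called with TMM scaling. Over all tested genes 6.64% were higher and 6.82% lower with this scaling. The balance turned with the scaling, to 0 higher and 5 lower at library totals and 0 higher and 7 lower on log2(TPM + 1). It turned in the same way over all genes, with 4508 of 14286 lower at library totals and 7322 of 11567 on log2(TPM + 1). Hnf4a, a hepatocyte nuclear receptor, and Nr1i2, which encodes the xenobiotic receptor PXR, rose by 0.67 ± 0.10 and 0.71 ± 0.12 (edgeR adjusted p = 0.006 and 0.0073). Nr1h3, which encodes LXRα, and the oestrogen receptor gene Esr1 rose by 0.37 and 0.78 (edgeR adjusted p = 0.0347 and 0.0278), but Nr1h3 was not called once any single library was left out (0.0617 to 0.123), nor Esr1 without control library 1 or 2 or mutant library 1 or 3 (0.0706 to 0.0900). At library totals none of these 4 was called, and Nr1h3 was -0.03. On log2(TPM + 1) Hnf4a, Nr1i2 and Esr1 were at 0.07, 0.11 and 0.14 and not called, and Nr1h3 was at -0.22, called lower when no filter was used (limma adjusted p = 0.0372). Nfe2l2, which encodes the stress regulator NRF2, fell by 0.61 ± 0.11 (edgeR adjusted p = 0.0093), with 20.05, 20.2 and 20.8 TPM in mutant libraries 1 to 3, against 42.4, 51.0 and 47.3 TPM in control libraries 1 to 3. The receptor genes Nr1i3 (CAR), Nr1h4 (FXR) and Ppara were not called (log2 fold changes 0.21, 0.00 and 0.26, edgeR adjusted p = 0.299, 0.985 and 0.195).

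**Figure D4:**
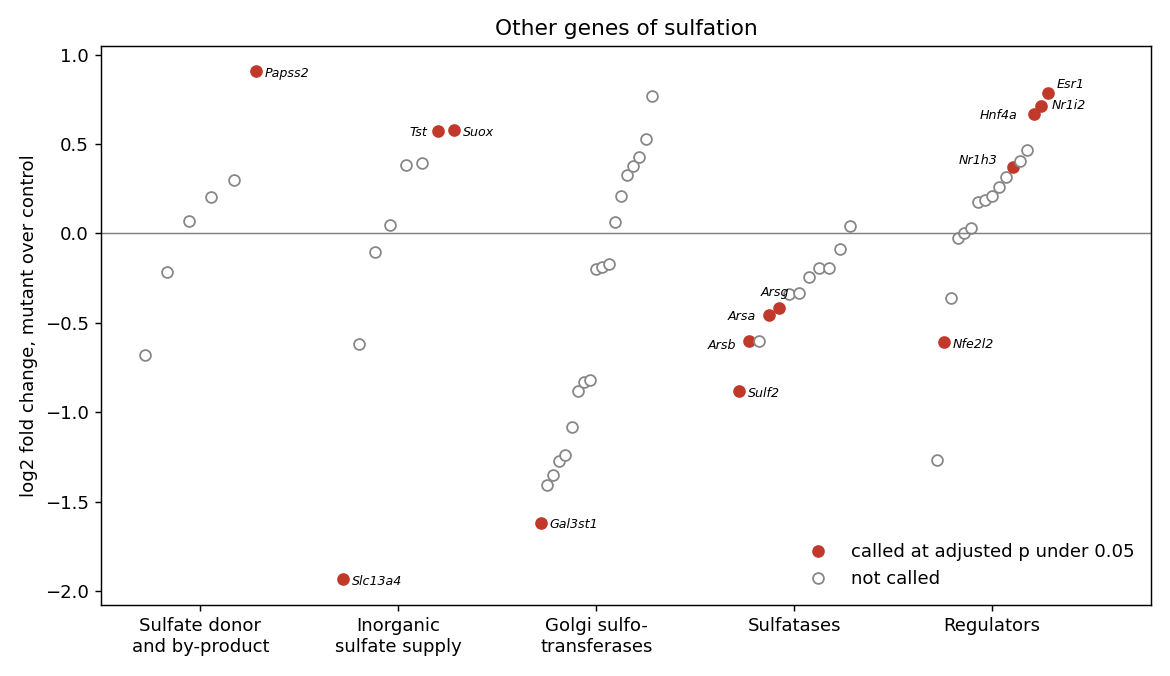
Log2 fold changes, mutant over control, of tested genes in 5 lists around sulfation, from edgeR with TMM scaling. Each point is 1 gene and filled points are called at an adjusted p under 0.05. Papss2 is at 0.91, the called sulfatases lie between -0.42 and -0.88, and Gal3st1 is at -1.62.

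The tissue label fitted its markers, with albumin at 31140 TPM in the mutants and 45261 TPM in the controls on average. Markers of other cells were lower in the mutants in part. The calls below are from edgeR with TMM scaling, where 6.64% of all tested genes were called higher and 6.82% lower. Of 7 stellate cell genes 5 fell and 0 rose, with summed levels of 64.9 to 71.0 TPM in the mutants and 175 to 201 TPM in the controls. Of 6 genes of monocyte-derived macrophages 4 fell and 0 rose, with summed levels of 13.8 to 16.6 TPM in the mutants and 35.4 to 49.0 TPM in the controls. Of 6 Kupffer cell genes 1 fell and of 6 sinusoidal endothelial genes 2 fell, while 0 of 6 lymphocyte genes were called. Among 6 cholangiocyte genes Sox9 rose and Spp1 fell. Their summed level was 22.5 to 38.0 TPM in the mutants and 77.9 to 114 TPM in the controls, most of it Spp1, and the other 5 genes overlapped between groups in TPM. Of 8 hepatocyte genes 4 rose and 0 fell after TMM scaling, although their summed level in TPM was also lower in the mutants (56985 to 65269 TPM in the mutants and 73469 to 84838 TPM in the controls). Of the adipocyte markers Cfd, the 1 tested, fell, with summed levels of 0.0948 to 0.273 TPM in the mutants and 22.7 to 55.5 TPM in the controls, and Lep was at 0 in all libraries. Of 6 markers of intestine or pancreas 2 were tested and 0 called, and Prss1, Cpa1 and Amy2a5 were at 0 in all libraries. Their summed level, most of it Fabp2, was 150 to 175 TPM in the mutants and 266 to 280 TPM in the controls. The part of these cells in the results was not tested. In bulk tissue fewer cells of a type and less RNA per cell cannot be told apart.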

How the data were processed

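Gene values of 6 liver libraries were used, 3 per group. Per the submitters' processing notes, cutadapt, STAR and build mm10 were used. The quantifier was not given in the sources used here. In the tables the authors deposited are estimated counts, of which 0 nonzero values were whole within 1e-06, and TPM whose ratio was the product of 1 gene factor and 1 library factor. Estimated counts were rounded and tested with edgeR 4.0.16 (filterByExpr, TMM, quasi-likelihood F-test on group, Benjamini-Hochberg). Errors of log2 values are SE from the F statistic. The deposited TPM were tested with limma 3.58.1 on log2(TPM + 1). Other settings were RLE, library totals, other filters, DESeq2 1.42.0, a replicate block and leaving out libraries. Library pairs differed by an average chi-square per gene of at least 47.2. Separate animals are not stated in the labels, so p-values measure the spread between libraries. The procedure was tested on simulated data. Coordinates and coding sequences came from GENCODE M21, aligned with Biopython 1.88. Members and lists were chosen with earlier results of these data known. Named by rule were the members, Rxra, up to 6 called genes per list with the smallest p, the most abundant gene of a list with no call, and nearest profiles. Papss1, Nr1i3, Nr1h4, Ppara and the cell markers were named after their values were seen.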

Additional observations from a re-analysis of the deposited data

How the results depend on the processing

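The increase of Sult2a8 and the decrease of Sult1c2 kept their direction and call in all alternatives. For Sult5a1 the direction held in all, and the call was lost without control library 1. Against 1923 changed genes, 4801 were called at library totals (6.10% of them higher, against 49.3% with TMM), 7521 on log2(TPM + 1), 7272 on log2(TPM + 0.1) and 7159 on log2(TPM + 1) with no filter, and leaving out 1 library gave 882 to 1514, with 882 without mutant library 1 and 886, 956 and 1018 without control libraries 1, 2 and 3. Leaving out 1 library gave 1 to 2 members called higher. Members called lower numbered 2 with no filter, with DESeq2 and in the filtered TPM fits, and 3 on log2(TPM + 1) with no filter. Members called in all numbered 5 with DESeq2 and on log2(TPM + 1) with no filter, against 3.

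Signs turned for members that were not called. Sult1a1 was -0.15 at library totals, -0.36 on log2(TPM + 1) with and without the filter and -0.36 on log2(TPM + 0.1). Sult1b1 was -0.31 at library totals, -0.48 on log2(TPM + 1) with and without the filter, -0.50 on log2(TPM + 0.1) -0.0073 without control library 2 and, the highest without 1 library, 0.18 without control library 3. Sult1d1 was -0.054 at library totals, -0.25 on log2(TPM + 1) with and without the filter and -0.26 on log2(TPM + 0.1). Sult1e1 ranged over the fits without 1 library, with -0.72 without mutant library 2 and 0.087 without mutant library 3. The cause was not tested. Over the genes that were also tested with TMM scaling, the median was -0.40 at library totals, and -0.49, -0.55 and -0.43 in the TPM fits. The share difference of Sult1d1, -2.18 percentage points, was -3.25 with estimated counts in place of TPM, and that of Sult5a1, 1.00, was 0.586.

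With the replicate number as a replicate block 1558 genes were called, and no member's call changed. Same-numbered libraries correlated at 0.017, -0.0032 and 0.063 in their deviations from the group means, so the numbers were not taken as pairs. Depth limits Sult2a1, Sult3a1 and Sult1e1.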
